A study of Bos taurus with 6 samples.

Results

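The de novo DNA methyltransferases DNMT3A and DNMT3B and the thymine DNA glycosylase TDG were followed in 6 bovine embryos, each sequenced as a library of its own. Members were chosen by gene symbol from a list of 6 genes, DNMT3A, DNMT3B, TET1, TET2, TET3 and TDG. Of these, 3 had a row under their symbol in every library, among 13295 symbols that did. TET1, TET2 and TET3 were not analysed by name here. Of the 2 groups, 3 morulae were MAT2A-inhibited, cultured with 20 µM FIDAS-5, and 3 were Control morulae, cultured with 0.1% DMSO, the solvent of the inhibitor. No DMSO content is stated for the MAT2A-inhibited embryos. FIDAS-5 inhibits MAT2A, the enzyme that makes S-adenosylmethionine, and the comparison asks what changes when that methyl donor is limited. All embryos were made by in vitro fertilization, entered their group 72 h after insemination (day 3) with 8 to 16 cells, and were collected at 144 h (day 6), in culture with 5% oxygen. The labels name no parents, no strain and no separate cultures, so each p-value measures only the spread between these embryos, part of which may be technical.

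DNMT3A and DNMT3B place methyl groups on cytosines that carry none, with S-adenosylmethionine as donor, whereas DNMT1 copies existing marks after replication. TET enzymes oxidise methylcytosine, and TDG cuts out the most oxidised forms so that base excision repair can restore plain cytosine. In mammalian embryos the marks inherited from the gametes are largely lost during cleavage, and de novo methylation follows. When it starts was not measured in these embryos. The blastocyst is the stage after the morula.

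Depth recovered from the files was 46500000 to 59900000 fragments per library, and 7319 genes were tested with limma on log2(FPKM + 1). FPKM is a level per kilobase of transcript, so levels of different genes can be set side by side. Every library held the embryo genes POU5F1 (254.8 to 431.0 FPKM) and DPPA3 (453.5 to 881.3 FPKM). Transcripts of the Y chromosome were present in MAT2A-inhibited morulae 2 and 3 (57.3 and 116.4 FPKM summed over DDX3Y, EIF1AY and USP9Y, against at most 0.193 FPKM in the other libraries). The transcript of the inhibited enzyme, MAT2A, had a log2 fold change of -0.12 ± 0.24 (SE, n = 3 each). That value does not check the labels, and neither enzyme activity nor S-adenosylmethionine was measured in these libraries. A library holds all cells of its embryo, so that fewer cells with a transcript and less transcript per cell cannot be told apart.

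DNMT3A, which lies on bosTau8 chromosome 11 (73963487 to 74066746), was the highest of the 3 genes in 5 of the 6 embryos, or in 4 when a locus beside DNMT3B in Control 2, described with that gene, is added to it. It stood at 47.6, 10.3 and 17.4 FPKM in the MAT2A-inhibited embryos 1 to 3, against 5.78, 4.28 and 27.7 FPKM in Control morulae 1 to 3. Control 3 lay above 2 of the 3 MAT2A-inhibited embryos, so the groups overlapped. In rank terms, 70.5% to 86.0% of the kept genes were lower than DNMT3A in MAT2A-inhibited morulae and 60.9% to 81.1% in Control morulae. The mean was 25.1 ± 19.8 FPKM in MAT2A-inhibited and 12.6 ± 13.1 FPKM in Control morulae (SD, n = 3 each, exact two-sided permutation p = 0.5). The smallest p that 3 against 3 embryos can give is 0.1. On the log2 scale the difference was 1.10 ± 0.75 (SE), with a 95% interval from -0.64 to 2.84 and a limma adjusted p of 0.800. That interval holds no change as well as a rise of several fold. Without MAT2A-inhibited morula 1 the log2 fold change was 0.52, without Control 2 it was 0.63, and without Control 3 it was 1.86. Without MAT2A-inhibited morulae 2 and 3, the libraries with Y-linked transcripts, it was 2.27, a value that rests on 1 treated embryo.

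**Figure D1:**
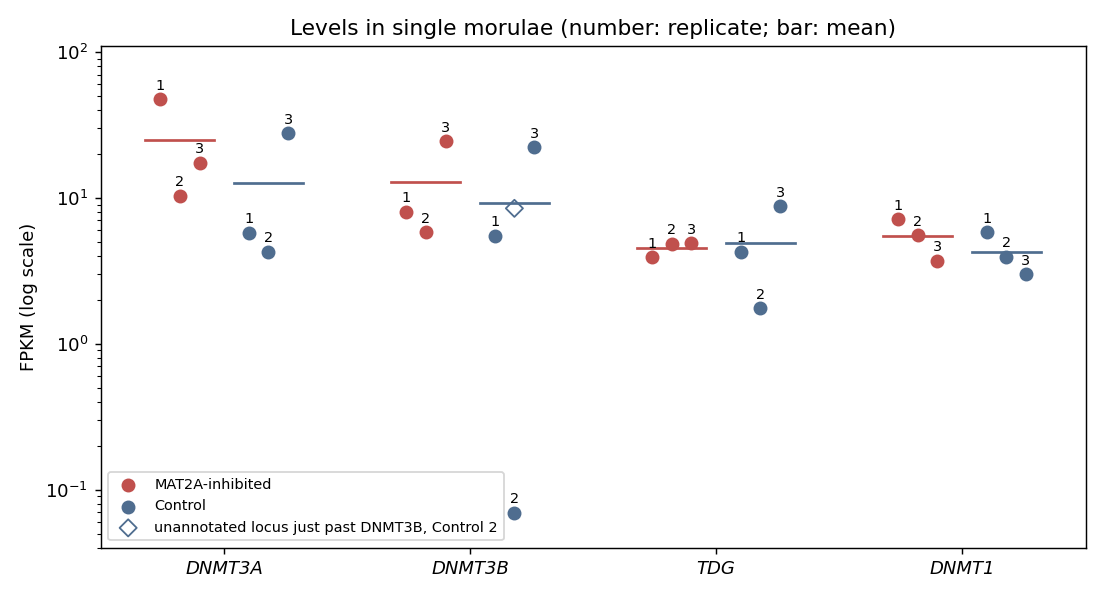
FPKM (log scale) of DNMT3A, DNMT3B, TDG and, for comparison, DNMT1 in each morula, with MAT2A-inhibited embryos left of Control embryos, the replicate number at each point and the mean as a bar. The groups overlap for every gene, and DNMT3B in Control 2 stands far below all other points at 0.0697 FPKM, while the open diamond marks the unannotated locus just past it at 8.47 FPKM.

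DNMT3B (chromosome 13, 62700411 to 62722424 in MAT2A-inhibited morulae 2 and 3) stood at 8.04, 5.80 and 24.5 FPKM in the MAT2A-inhibited embryos 1 to 3, against 5.50, 0.0697 and 22.3 FPKM in Control morulae 1 to 3. MAT2A-inhibited morula 3 and Control 3 were nearly level at the top, and Control 2 stood alone at the bottom. The mean was 12.8 ± 10.2 FPKM in MAT2A-inhibited and 9.29 ± 11.6 FPKM in Control morulae (SD, n = 3 each, exact two-sided permutation p = 0.5). On the log2 scale the difference was 1.09 ± 1.06 (SE), with a 95% interval from -1.37 to 3.55 and a limma adjusted p of 0.838.

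That fold change rests on Control 2, where the gene was assembled unlike in the other libraries. Whether DNMT3B was truly low in that embryo was not tested. There the DNMT3B row carries the gene's own identifier and ends at position 62721124, whereas in the other 5 libraries the locus was extended by assembly, by 1300 to 1805 bases beyond that point. In Control 2 the stretch is a row of its own: an unannotated locus from 62721711 to 62722418, 586 bases past the end of the DNMT3B row and 708 bases long, at 8.47 FPKM. No other library has a separate locus of 600 bases or more there. Added to DNMT3B, as rows of 1 symbol are, it would give Control 2 8.54 FPKM. A sum of levels per length gives this short stretch full weight, so 8.54 FPKM is a high estimate for Control 2, just as 0.0697 FPKM leaves the stretch out. With the sum the log2 fold change of DNMT3B was 0.039 ± 0.625 (SE, limma adjusted p = 0.991), and without Control 2 it was -0.083. Without MAT2A-inhibited morula 3 it was 0.53, and without Control 3 it was 2.14.

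TDG (chromosome 5, 67973222 to 67994057) was low and even in MAT2A-inhibited morulae, at 3.91, 4.84 and 4.91 FPKM. Control morulae stood at 4.27, 1.75 and 8.73 FPKM and enclosed all 3 MAT2A-inhibited values. The mean was 4.55 ± 0.56 FPKM in MAT2A-inhibited and 4.92 ± 3.53 FPKM in Control morulae (SD, n = 3 each, exact two-sided permutation p = 0.9). On the log2 scale the difference was 0.089 ± 0.468 (SE), with a 95% interval from -1.0004 to 1.18 and a limma adjusted p of 0.968. Its sign turned without Control 2, to -0.37, and without the libraries with Y-linked transcripts, to -0.085.

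None of the 3 genes passed, where 0.041% of all tested genes did (3 of 7319), 0.0273% higher and 0.0137% lower in MAT2A-inhibited morulae. The groups overlapped for all 3 genes, where they did not overlap for 13.4% of tested genes, 8.27% higher and 5.18% lower in MAT2A-inhibited morulae. At an unadjusted limma p below 0.05, 0 of the 3 genes and 6.64% of all tested genes were found. The median log2 fold change was 1.09 over the 3 genes and 0.045 over all tested genes. With the adjoining locus added in Control 2, DNMT3A alone of the 3 had a log2 fold change above 0.1.

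**Figure D2:**
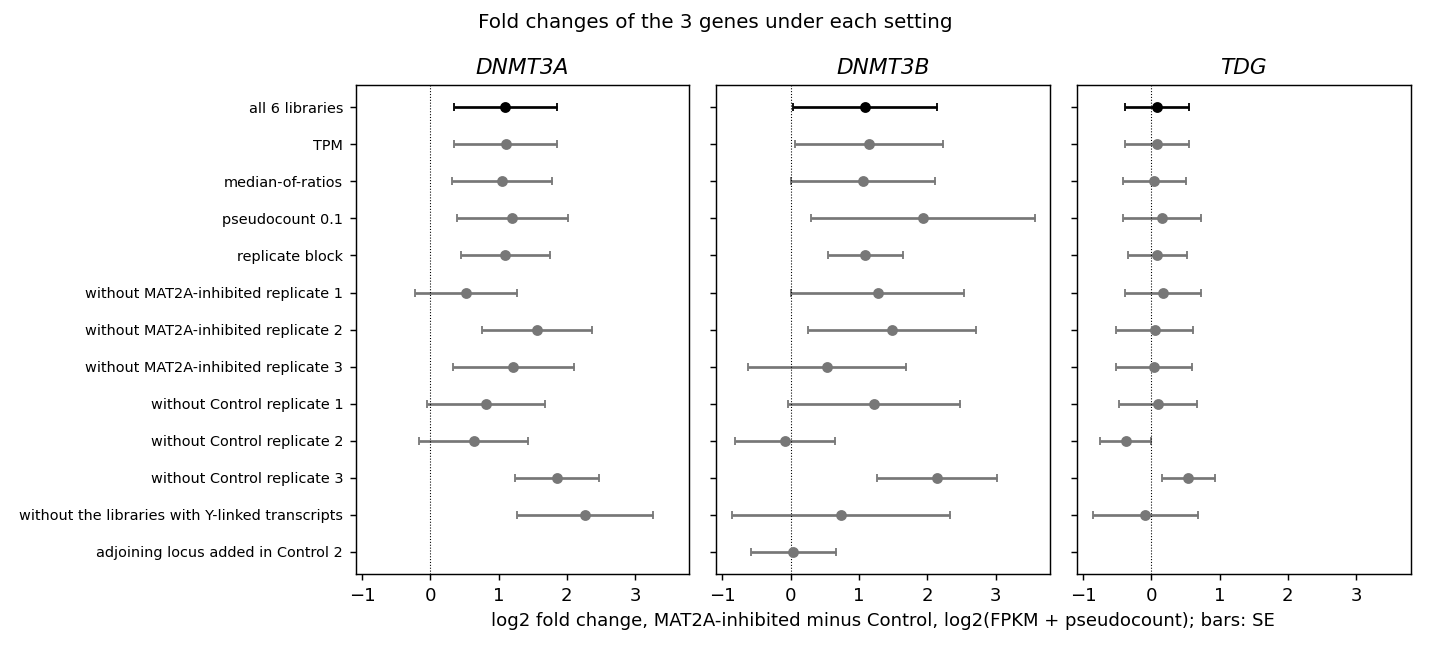
Log2 fold change with its SE (x axis, MAT2A-inhibited minus Control) of DNMT3A, DNMT3B and TDG under each setting (rows). DNMT3A stays above 0 throughout, from 0.52 to 2.27, DNMT3B drops to about 0 when Control 2 is left out or its adjoining locus is added, and TDG lies on both sides of 0.

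The methyltransferases varied widely between embryos of 1 group. In MAT2A-inhibited morulae the highest DNMT3A value was 4.61 times the lowest, against 6.48 times in Control morulae. On the log2(FPKM + 1) scale the residual SD was 1.20 for DNMT3A and 1.73 for DNMT3B, where the median over all tested genes was 0.40. Most genes varied less: 96.2% had a smaller residual SD than DNMT3A and 98.8% a smaller one than DNMT3B. With the adjoining locus added in Control 2 the residual SD of DNMT3B was 0.97, below that of DNMT3A, and 92.4% of genes had a smaller one. In MAT2A-inhibited morulae alone, which the assembly of Control 2 does not touch, 94.4% of genes had a smaller SD than DNMT3A and 93.3% a smaller one than DNMT3B. TDG had an SD of 0.15 in MAT2A-inhibited and 0.91 in Control morulae, and the difference in spread was not tested. DNMT1, the maintenance enzyme, varied about as much as the median gene (residual SD 0.39), though its locus was assembled with different starts between libraries.

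**Figure D3:**
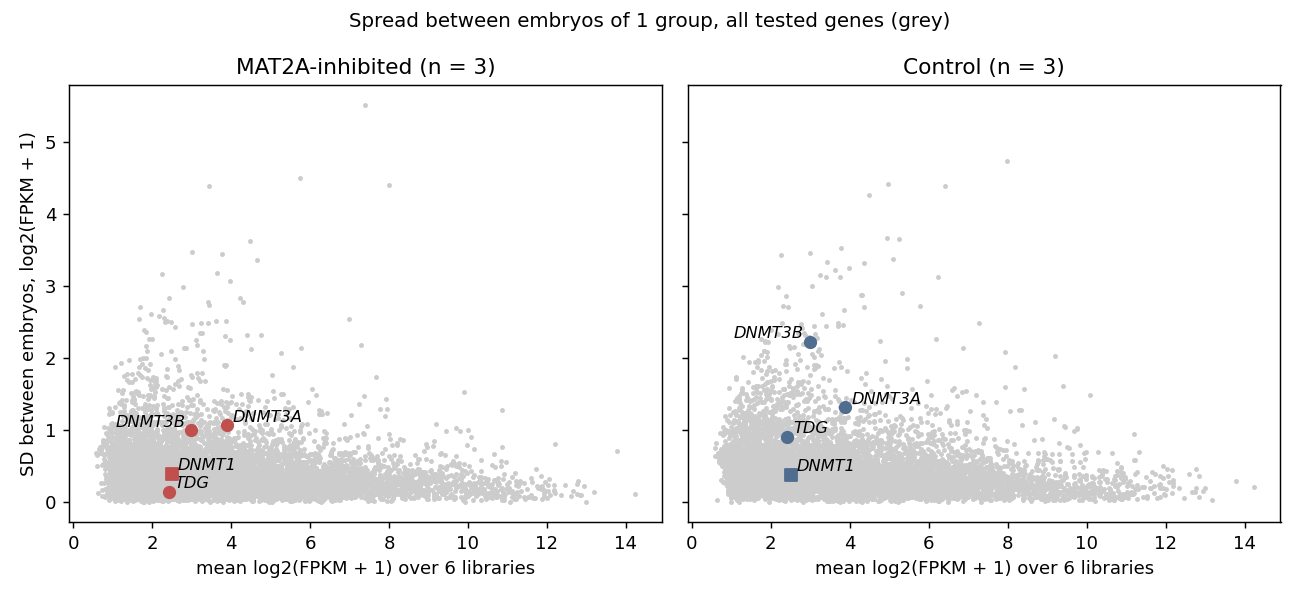
SD between the 3 embryos of a group on the log2(FPKM + 1) scale (y axis) against mean log2(FPKM + 1) over the 6 libraries (x axis), MAT2A-inhibited left and Control right, each grey point 1 of 7319 genes. DNMT3A and DNMT3B lie above most genes in both groups, and TDG does so among Control morulae, where 89.2% of genes had a smaller SD, while 15.3% had one among MAT2A-inhibited morulae.

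The balance between the enzymes also differed from embryo to embryo. DNMT3A made up 85.5%, 64.0% and 41.6% of the summed DNMT3A and DNMT3B level in MAT2A-inhibited morulae 1 to 3, against 51.2%, 98.4% and 55.4% in Control morulae 1 to 3. The value of Control 2 rests on its low DNMT3B row, and with the adjoining locus added it was 33.4%. The summed de novo level was 7.82, 2.92 and 11.3 times that of DNMT1 in MAT2A-inhibited morulae and 1.95, 1.10 and 16.7 times in Control morulae. De novo transcripts outweighed DNMT1 in every embryo, by a factor that overlapped between the groups. The DNMT1 locus began at 15905784 and 15905783 in MAT2A-inhibited morulae 1 and 2, and at 15913445 in the other libraries. Its level may therefore not be per the same length of transcript, and the effect on these ratios was not tested. The summed de novo level was 14.2, 3.33 and 8.53 times that of TDG in MAT2A-inhibited morulae, against 2.64, 2.48 and 5.73 times in Control morulae. With the adjoining locus added, Control 2 had 3.24 times the level of DNMT1 and 7.32 times that of TDG.

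Across embryos TDG ran close to the keratins KRT8 and KRT18, while other genes of the trophectoderm, the outer epithelium of the next stage, gave mixed values. KRT8, a keratin of simple epithelia, stood at 38.7, 109.5 and 229.9 FPKM in the MAT2A-inhibited embryos 1 to 3, against 81.4, 4.49 and 400.5 FPKM in Control morulae 1 to 3. The 6 embryos fall in the same order by KRT8 as by TDG, from Control 2 to Control 3 (Pearson r = 0.96 on log2 values, Spearman rho = 1), and without Control 2 and Control 3, the libraries farthest from the median of KRT8, r was 0.92. KRT18 had r = 0.93 with TDG (rho = 0.94), and 0.90 without the same libraries. GATA3, a transcription factor of the trophectoderm lineage, had r = 0.93 (rho = 0.83), and 0.52 without them. CDX2, another such factor, had r = 0.59 with TDG (rho = 0.31), and the adhesion protein CDH1 had r = 0.32 (rho = 0.89). CDX2 was low in every library, at 0.188 to 2.77 FPKM. For DNMT3B r was 0.94 with KRT8, 0.85 with KRT18, 0.89 with GATA3, 0.70 with CDX2 and 0.23 with CDH1. With the adjoining locus added in Control 2 these were 0.54, 0.67, 0.77, 0.48 and 0.42 in the same order, so the higher ones rest in part on the low row. Without Control 2, over 5 libraries, they were 0.78, 0.76, 0.88, 0.49 and 0.42. DNMT3A had r = 0.71 with CDX2, 0.63 with GATA3, 0.54 with KRT18, 0.48 with KRT8 and -0.44 with CDH1. Without Control 2 and Control 3 its r was 0.30 with GATA3, -0.016 with KRT18 and -0.42 with KRT8. With CDX2 it was 0.78 without Control 2 and MAT2A-inhibited morula 2, farthest from the median of CDX2. CDH1 was listed at 0 in MAT2A-inhibited morula 1 and between 49.1 and 323.4 FPKM elsewhere. Without MAT2A-inhibited morulae 1 and 3, farthest from its median, its r was 0.86 with TDG, 0.83 with DNMT3B as listed and 0.91 with DNMT3A. The pluripotency factor NANOG was highest in Control 2, at 20.3 FPKM, and its r with DNMT3B was -0.82, or -0.20 with the adjoining locus added. Without Control 1 and Control 2, the libraries farthest from the median of NANOG, that r was 0.67. The pluripotency factors SOX2 and POU5F1 had r = 0.45 and -0.29 with DNMT3B, or -0.25 and 0.46 with the adjoining locus added. These genes were picked after their values were seen, among 36 relations of 12 other genes with the 3 members, over 6 libraries of 2 groups, and describe these embryos only. The part of embryo stage or cell makeup in the 3 genes was not tested.

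Markers of other sources were read in the same libraries. The 11 cumulus or fibroblast genes summed to 43.5 to 83.5 FPKM in MAT2A-inhibited and 61.7 to 129.5 FPKM in Control morulae, most of it SERPINE2. Over the 6 embryos that sum ran nearly opposite to DNMT3B (Spearman rho = -0.89, or -0.77 with the adjoining locus added), and less so to TDG (-0.77) and DNMT3A (-0.54). COL3A1 and PTX3 were listed at 0 in every library. The 6 sperm genes summed to 5.13 to 11.5 FPKM in MAT2A-inhibited and 3.68 to 4.79 FPKM in Control morulae. The groups did not overlap for that sum, as for 13.4% of all tested genes taken singly. No sperm gene separated the groups by itself, and AKAP4 and ODF1 were listed at 0 in every library. The 3 blood genes summed to 81.9 to 109.8 FPKM in MAT2A-inhibited and 63.1 to 132.4 FPKM in Control morulae, nearly all of it HBA, with rho = -0.66 to DNMT3B, -0.77 to TDG and -0.54 to DNMT3A. DCN and LUM, of connective tissue, were highest in Control 2, at 11.002 and 4.81 FPKM, as was VIM at 0.501 FPKM. Other genes of that list did not follow: COL1A2 was lowest there, at 0.231 FPKM against 0.529 to 4.29 FPKM elsewhere. COL1A1 and SERPINE2 were highest in Control 1. The part of these sources in the values of the 3 genes was not tested.

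Among all other tested genes, the closest in pattern over the 6 libraries were picked by Pearson r on log2(FPKM + 1). For DNMT3A these were MED26, a subunit of the Mediator complex, and PHACTR4, a regulator of phosphatase and actin (r = 0.99 for both). PHACTR4 stood at 28.5, 8.32 and 13.5 FPKM in the MAT2A-inhibited embryos 1 to 3, against 7.71, 5.43 and 19.0 FPKM in Control morulae 1 to 3, the same order of embryos as DNMT3A. For DNMT3B they were the peptidase DPP3 (r = 0.997) and MICU2, which gates calcium uptake into mitochondria (r = 0.99). Both were lowest in Control 2, and with the adjoining locus added there r was 0.63 for DPP3 and 0.67 for MICU2, or 0.99 and 0.97 without Control 2. For TDG they were TMEM184B and the kinase DAPK1 (r = 0.99 for both). With 7316 genes searched over 6 libraries, 25, 63 and 39 genes had r above 0.95 with DNMT3A, DNMT3B and TDG in that order. With the adjoining locus added it was 7 for DNMT3B.

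Other genes of the pathway gave no call in either direction: 0 of 49 tested genes in 6 lists passed limma over all genes. Of the regulators of methylation upkeep, 10 were tested and 3 had an unadjusted limma p below 0.05, as 6.64% of all tested genes had. UHRF1, which brings DNMT1 to replicated DNA, stood at 2.25, 2.78 and 0.797 FPKM in the MAT2A-inhibited embryos, against 7.04, 5.53 and 5.29 FPKM in Control morulae (log2 fold change -1.30, limma adjusted p = 0.688). CDCA7, a partner of the chromatin remodeller HELLS, stood at 24.5, 18.9 and 25.2 FPKM in the MAT2A-inhibited embryos and at 18.4, 11.3 and 11.4 FPKM in the Control embryos (log2 fold change 0.73, limma adjusted p = 0.746). DPPA3, which guards methylation in the early embryo, had a log2 fold change of -0.62. The groups did not overlap for these 3 genes or for MORC2 (0.34), that is for 2 higher and 2 lower of 10, where 13.4% of all tested genes had groups that did not overlap.

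In the list of factors around histone marks and sites that DNMT3 enzymes meet, 4 of 12 had a row and were tested. All 4 had log2 fold changes above 0, as 54.2% of all tested genes had, with a median of 0.58, against 0.045 over all genes. QSER1, which keeps DNMT3 enzymes off some regulatory regions in human cells, stood at 2.71, 3.22 and 1.81 FPKM in the MAT2A-inhibited embryos, against 0.556, 1.42 and 1.51 FPKM in Control morulae (log2 fold change 0.74 ± 0.34, limma adjusted p = 0.750). ASH1L and EHMT1, both histone lysine methyltransferases, had log2 fold changes of 0.54 and 0.63. Of 3 tested methyl-CpG readers, ZBTB33 stood at 5.02, 1.34 and 2.17 FPKM in the MAT2A-inhibited embryos, against 4.94, 5.56 and 5.50 FPKM in Control morulae. MBD3 and MBD4 had log2 fold changes of 0.14 and -0.036, and the list median was -0.036.

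Base excision repair, which acts after TDG, had 14 tested genes, 8 above 0 and 6 below, with a median of 0.080. The glycosylase NEIL1 had a log2 fold change of -0.86 and the ligase LIG3 0.43. APOBEC2, a relative of the cytidine deaminases, stood at 2.09, 3.44 and 3.01 FPKM in the MAT2A-inhibited embryos, against 1.03, 1.06 and 1.97 FPKM in Control morulae, with a limma adjusted p of 0.750. Its groups did not overlap, as for 1 of the 14 genes of the list and 13.4% of all tested genes. Among TET partners and enzymes that set their co-substrate 2-oxoglutarate, 5 of 11 were above 0, with a median of -0.016. IDH1 and IDH3G, isocitrate dehydrogenases, had log2 fold changes of -0.34 and -0.80. IDH3B was listed at 0 in Control 2 and between 66.8 and 90.7 FPKM elsewhere, so no fold is given. Of 7 tested genes of S-adenosylmethionine supply 2 were above 0, with a median of -0.22, MAT2B at -0.29, AHCY at 0.56 and AHCYL2 at -0.36.

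**Figure D4:**
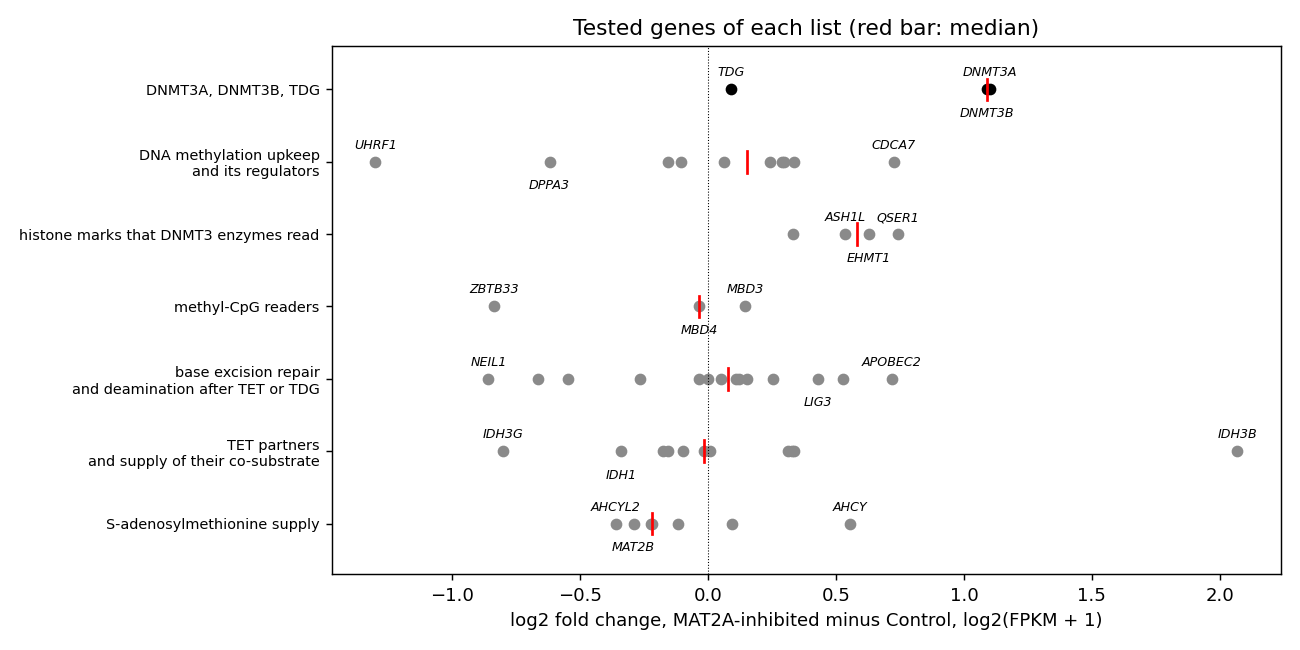
Log2 fold change (x axis, MAT2A-inhibited minus Control) of each tested gene by list (rows), with the median as a red bar and the named genes labelled. DNMT3A and DNMT3B lie at 1.10 and 1.09 and TDG at 0.089, the list medians run from -0.22 to 0.58, and no gene passed. IDH3B, far right, is listed at 0 in Control 2.

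The TET genes lie outside the named rows. In RefSeq's ARS-UCD2.0 annotation, used here for names and gene order only, 87.8% of 13942 protein-coding genes with a curated transcript had a row in every library, against 0.816% of 7724 genes with predicted transcripts only. DNMT3A, DNMT3B and TDG each have 1 curated transcript, and TET1, TET2 and TET3 have 0. The unannotated rows between the nearest genes that do have rows on either side were therefore described, by a rule set after the values were seen. These rows carry no gene name, and none is given to them here.

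The stretch between SLC25A16 and CCAR1, the neighbours of TET1, held assembled loci in every embryo (chromosome 28, 25040680 to 25202632). Loci of at least 1000 bases covered 5 stretches of it in all 6 libraries, of which the longest, on the side of CCAR1, was 18.2 kb from 25178476 to 25196662. The loci there summed to 25.6, 26.7 and 27.2 FPKM in the MAT2A-inhibited embryos 1 to 3, against 40.5, 24.7 and 21.1 FPKM in Control morulae 1 to 3. The MAT2A-inhibited embryos were close together and lay within the range of the Control embryos. In Control 2 the value is a sum of 2 overlapping loci, and in Control 3 it is 1 locus of 21.4 kb. The Control values are thus not built alike. The next longest, farther from CCAR1, was 17.1 kb from 25138311 to 25155402, with loci that summed to 56.9, 37.1 and 25.9 FPKM in the MAT2A-inhibited embryos, against 94.4, 66.2 and 28.7 FPKM in Control morulae. Those loci were 17.1 kb to 111.5 kb long, depending on the library, so their levels are not per the same length of transcript. RefSeq places 3 pseudogenes between the same neighbours.

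Between the neighbours of TET2 and TET3 the loci were at lower levels. From PPA2 to TACR3, a stretch of 1559.5 kb that also holds CXXC4, the highest locus of at least 1000 bases reached 1.82 to 8.01 FPKM per library, and no stretch was covered in all 6. From BOLA3 to DGUOK, around TET3, each library had 1 to 3 loci and at most 1 of 1000 bases or more, at up to 3.84 FPKM and no longer than 1425 bases. That locus was found in MAT2A-inhibited morulae 2 and 3 and in Control 1 and 2. No test was made on these rows.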

How the data were processed

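Each sample is 1 morula, with a polyA library made by a SMART-Seq kit, per the labels' protocols. TopHat2 2.0.14, Cufflinks 2.2.1 and bosTau8 are named in the submitters' processing notes. Neither settings nor annotation is named there. The authors deposited 1 table of FPKM values with bounds per library, per the file headers. No scaling between libraries is recorded. Per library 29294 to 54215 rows have no gene name, and those were not tested.

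Rows of 1 symbol were summed. Of 13295 symbols in all libraries, 13185 were kept, leaving out 38 in a locus merged with another symbol and 72 with a status other than OK. Genes that reached 1 FPKM in 3 or more libraries entered a two-sided test on log2(FPKM + 1), made in R 4.3.3 with limma 3.58.1 and its mean-variance trend, with Benjamini-Hochberg adjustment over all genes and a threshold of 0.05. Fold changes are MAT2A-inhibited minus Control and understate the change of low genes. DNMT3A and TDG reached 1 FPKM in 6 libraries and DNMT3B in 5. The fit was tested on simulated data.

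Depth came from the bounds of unannotated loci of 100 to 300 bases: 95.3% to 98.3% of bounds times length were whole fragments within 0.05, and 48.5% or fewer at that depth divided by 2. With lengths 1 base longer 59.9% or fewer were, so starts were read as counted from 0 and are printed counted from 1. Counts per gene were not recovered, so errors are the spread between embryos.

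The members and gene lists were chosen with earlier results of these data known. Named genes are the 6 members, MAT2A, DNMT1, the 3 genes of each list with the smallest p and the 2 genes closest to each member. KRT8, KRT18, GATA3, CDX2, CDH1, NANOG, MORC2, PHACTR4's values and markers named singly were chosen after their values were seen. Alternatives were other scalings, pseudocounts and filters, no trend, the highest row per symbol, a replicate block and leaving out libraries. Leaving out the libraries with Y-linked transcripts and adding the locus beside DNMT3B, there and in sums and correlations, were chosen after seeing the data.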

Additional observations from a re-analysis of the deposited data

How the results depend on the processing

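The 3 genes stayed short of the threshold under every alternative run. Leaving out 1 library at a time, the log2 fold change of DNMT3A ran from 0.52 to 1.86, that of DNMT3B from -0.083 to 2.14 and that of TDG from -0.37 to 0.54, with limma adjusted p from 0.553 to 0.996. The negative end of DNMT3B and of TDG is the fit without Control 2. TDG was also negative without the libraries with Y-linked transcripts (-0.085). A pseudocount of 0.1 gave DNMT3B 1.93, as its low value in Control 2 then weighs more. Of 7319 genes 3 passed. With no filter, with a mean of at least 5 FPKM or with the replicate number as a block 1 passed, without the libraries with Y-linked transcripts 0, and without 1 library at a time from 0 (each MAT2A-inhibited morula) to 8 (Control 3). TDG was below a mean of 5 FPKM and has no value there. Same-numbered deviations correlated at 0.0456, 0.103 and 0.191, and differently numbered ones from -0.212 to 0.102. Whether the replicate numbers pair the samples cannot be told from so few values. The replicate block changed no call of the 3 genes (limma adjusted p = 0.669, 0.634 and 0.957 for DNMT3A, DNMT3B and TDG). Median-of-ratios scaling moved the median log2 fold change of all genes to -0.0056. With 3 embryos a group, each of the 95% intervals above holds no change as well as changes in either direction.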
